A study of Mus musculus with 7 samples.

Results

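The 10 genes described here encode cytokine receptor kinases (Jak1, Jak2 and Jak3), the transcription factors they act on (Stat3, Stat5a and Stat5b) and inducible inhibitors of the same pathway (Cish, Socs1, Socs2 and Socs3). They were chosen by name: every array probe whose gene name in the scanner files is one of the 10 symbols was taken, which gave 17 probes of the 34887 that entered the test. Messenger RNA was compared in thymocytes at the consecutive stages DN3 and DN4, both of which lack CD4 and CD8. The DN4 cells came from KN6 transgenic (Tg) Rag2-/- mice and are called Lig+ or Lig- in the labels. The DN3 cells came from Rag2-/- mice without the transgene. All mice were BALB/c, and the labels used here give no age. KN6 is a γδ T cell receptor that recognises class I-like proteins of the T10 and T22 group, so that Lig+ and Lig- are read here as thymuses with and without that ligand. Both DN4 groups therefore carried 1 defined receptor in cells that cannot rearrange their own, and the DN3 cells carried neither the transgene nor a rearranged receptor. The promoter that drives the transgene and the way the ligand was removed are not given in the sources used here. Receptor and stage change together in either comparison with DN3 and cannot be told apart.

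There were 7 Agilent 2-colour arrays, 4 Lig+ and 3 Lig-, and each paired RNA of flow-sorted DN4 cells with RNA of DN3 cells. The labels name the DN4 stage on slides 1 and 2 only. Per the series text the arrays of a group are biological replicates. Whether the DN3 RNA was 1 pool is not stated. Lig+ and Lig- replicates 1, 2 and 3 shared slides 1, 2 and 3, and Lig+ replicate 4 lay alone on slide 4. Slides 1 and 2 were scanned on one day (scan day 1) and slides 3 and 4 on another (scan day 2). Between 72.9% and 84.9% of probes were well above background in the DN4 channel of an array, and between 75.8% and 83.7% in the DN3 channel. All 17 member probes were well above background in both channels of all 7 arrays, and the scanner marked 0 spots as saturated. Values are log2 ratios of DN4 over DN3, so that 1 unit is a doubling, with standard errors from a limma fit of all 7 arrays. A probe was called when its Benjamini-Hochberg adjusted p over all 34887 probes was below 0.05. The labelled stages were checked with their markers. Il2ra, which encodes CD25 of DN3 cells, had a log2 ratio of -5.29 ± 0.20 in Lig+ DN4 cells (adjusted p = 1.39e-05) and of -5.45 ± 0.22 in Lig- cells (adjusted p = 2.61e-05). Ptcra, the pre-T cell receptor chain, had log2 ratios of -5.22 and -4.70 (adjusted p = 3.09e-05 and 9.22e-05). Of the 7 DN3 stage markers, 5 were called lower in Lig+ and 6 in Lig-. Dtx1 was not called in Lig+ (-0.07, adjusted p = 0.765) but fell in Lig- (-2.18, adjusted p = 0.000216). Its difference of 2.11 between the groups was called (adjusted p = 0.00305). Cd44, which is low in DN3 cells, was called in neither group (0.64 and 0.70, adjusted p = 0.0704 and 0.0792). The 9 T lineage markers were mixed, with 3 called higher and 4 lower in Lig+ and 4 higher and 2 lower in Lig-. Over all genes, by their brightest probe, 17.2% were called higher and 18.7% lower in Lig+, and 16.1% and 14.8% in Lig-. Cd3e fell (-0.46 and -0.66, adjusted p = 0.0273 and 0.0115), while Tcf7 rose (1.22 and 2.03, adjusted p = 0.000249 and 7.33e-05) and so did Gata3 (0.74 and 3.43, adjusted p = 0.0144 and 6.11e-05). Cd4 was not called (0.21 and -0.06, adjusted p = 0.149 and 0.721), and neither was Cd8a (0.99 and 2.28, adjusted p = 0.349 and 0.0745). Cd8a ran from -0.35 to 3.85 over single arrays. Cd8b1 was called in Lig- on its brighter probe (0.68 in Lig+, adjusted p = 0.067, and 0.94 in Lig-, adjusted p = 0.0345), and its other probe read 3.17 and 4.35. The 3 other later thymocyte markers, Cd2, Cd5 and Cd27, rose in both groups, with log2 ratios from 1.71 to 4.16.

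Cytokine receptors of this type have no kinase of their own and rely on JAK proteins bound to their tails. On binding of a cytokine the JAKs phosphorylate the receptor and then STAT proteins, which pair, enter the nucleus and switch on target genes. Cish and the Socs genes are among those targets, and their proteins bind JAKs or the phosphorylated receptors and damp the signal, so that their transcripts are widely read as a record of recent cytokine signalling. In the early thymus the best known such signal is that of IL-7, which passes through JAK1 and JAK3 to STAT5 and supports survival and γδ T cell development.

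The probes behind the results below are 60 bases long, and the first 30 bases of some of them are shown, 5′ to 3′ as the scanner files list them. They are shown because each gene's value rests on which stretch of the transcript was measured: 1 probe each for Cish and Stat5a, a pair of probes for Socs2 that gave like values, and a pair for Jak2 that did not.
Cish A_51_P470715: actttagaaaacaagtgttagaacacaaga
Socs2 A_51_P107362: aggtgtgaagatgtagctaggtattttaaa
Socs2 A_52_P84037: tgtcataggagaaactacatctgggaaatt
Jak2 A_51_P483231: accaagcagacttccagaaccagaacaaag
Jak2 A_52_P309376: cagatctcaccaacattacagaggcataat
Stat5a A_51_P152765: gaggaaacctggggcgaaaaacctgtagca
Over the whole 60 bases, the longest run shared by any 2 of the 17 probes was 10 bases among 136 pairs. No letters are capitalised in these probes because no motif in them was searched.

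Of the 4 inhibitor genes, 3 fell from DN3 in both DN4 groups. Socs2 fell 11.4-fold in Lig+ and 11.3-fold in Lig- cells, and Socs1 and Socs3 fell by 1.61-fold to 1.78-fold. Cish was the exception: it fell 8.58-fold in Lig- cells, was not called in Lig+ cells, and was 4.93-fold higher in Lig+ than in Lig- cells. Among the kinases, Jak1, Jak2 and Jak3 rose in both groups on their brightest probes. Stat5a was called lower in Lig+ cells and not in Lig- cells, while Stat3 and Stat5b were called in neither group. In all, 11 of the 17 probes were called in Lig+ against DN3, 6 higher and 5 lower, where 36.6% of all probes were called, 17.7% higher and 18.9% lower. In Lig- against DN3, 10 of the 17 were called, 5 higher and 5 lower, where 31.8% of all probes were called, 16.3% higher and 15.5% lower. In Lig+ against Lig-, 1 of the 17 was called, as higher in Lig+, where 10.9% of all probes were called, 4.57% higher and 6.35% lower. The median log2 ratio of all probes was -0.00059 in Lig+ and -0.0031 in Lig-. The brightest probe of each gene leads its account, and of these 10 leading probes 7 were called in each comparison with DN3, 3 higher and 4 lower, where 35.9% (Lig+) and 30.9% (Lig-) of all genes' leading probes were. Between the DN4 groups 1 of the 10 leading probes was called, where 11.2% of all genes' leading probes were, 4.58% higher and 6.59% lower in Lig+. Both comparisons share the DN3 cells as control. In sorted populations of this kind a lower share of cells that express a gene and less RNA per cell cannot be told apart.

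**Figure D1:**
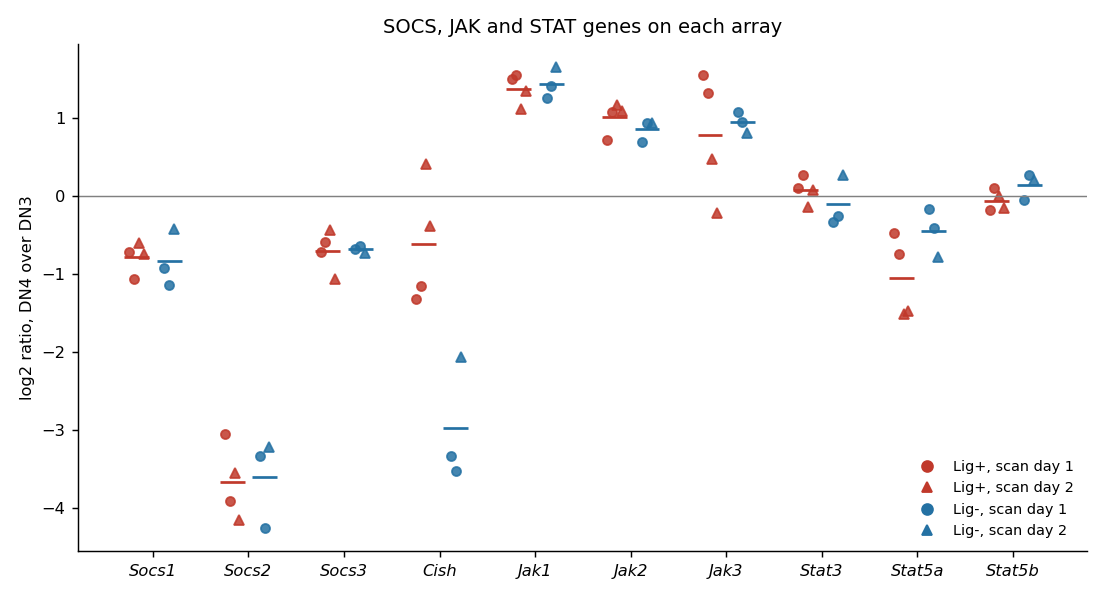
Log2 ratio of DN4 over DN3 on each array (vertical axis) for the brightest probe of each of the 10 genes (horizontal axis), with Lig+ arrays in red, Lig- arrays in blue, circles for scan day 1 and triangles for scan day 2; short lines are plain group means over the 4 or 3 arrays. Cish is the only gene of the 10 whose red and blue points do not overlap, Socs2 lies below -3 on all 7 arrays, and Jak3 and Stat5a in Lig+ separate by scan day.

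Socs2 encodes an inhibitor best known for restraining growth hormone signalling and is itself induced by STAT5. On the Lig+ arrays its brighter probe read -3.06, -3.91, -3.56 and -4.16, and on the Lig- arrays -3.33, -4.26 and -3.22. All 7 arrays were low and the groups overlapped over most of their range. The fit gave -3.52 ± 0.20 for Lig+ (n = 4, 11.4-fold lower, adjusted p = 4.9e-05) and -3.50 ± 0.22 for Lig- (n = 3, 11.3-fold lower, adjusted p = 1.0e-04). The difference between the groups was -0.02, with a 95% interval from -0.69 to 0.66. The other Socs2 probe, which by the files' coordinates lies 24.3 kb away, gave -3.23 ± 0.15 and -3.22 ± 0.17 (adjusted p = 2.6e-05 and 5.5e-05), so both probes showed a fall of the same size in either group. By the smallest root mean square difference over the 7 dye-adjusted log2 ratios, the genes most like Socs2 were Esr1 (0.272), Prnp (0.275) and Tmc5 (0.325).

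Socs1, an inhibitor that binds JAKs directly and limits interferon and common γ chain cytokine signals, fell to a similar degree in both groups. It read -0.72, -1.07, -0.60 and -0.74 on the Lig+ arrays and -0.93, -1.14 and -0.42 on the Lig- arrays. Every array was below 0, and the groups overlapped. The fitted values were -0.79 ± 0.14 in Lig+ (1.73-fold lower, adjusted p = 0.0062) and -0.83 ± 0.16 in Lig- (1.78-fold lower, adjusted p = 0.0088), with a difference of 0.04 (95% interval -0.45 to 0.54). Socs3, the inhibitor of gp130 receptors such as that of IL-6, read -0.72, -0.59, -0.43 and -1.06 on the Lig+ arrays and -0.67, -0.64 and -0.74 on the Lig- arrays. The Lig- arrays lay within the range of the Lig+ arrays. Its fitted values were -0.70 ± 0.11 in Lig+ (adjusted p = 0.0037) and -0.68 ± 0.12 in Lig- (adjusted p = 0.0074), and the difference was -0.02 (95% interval -0.41 to 0.37). Their calls, though not the size of the Lig+ falls, were lost on leaving out the arrays with swapped dyes. Without Lig+ replicate 1 the Lig+ value of Socs1 was -0.88 ± 0.24 (adjusted p = 0.0712) and that of Socs3 -0.69 ± 0.20 (adjusted p = 0.0766), and 16.1% of all probes were then called in Lig+. Without Lig- replicate 1 the Lig- values were -0.74 (adjusted p = 0.154) and -0.70 (adjusted p = 0.108). Within scan day 2, with 1 Lig- array, they were -0.42 (adjusted p = 0.0542) and -0.74 (adjusted p = 0.0613). A further probe that the files describe as similar to SOCS3 protein but name by a transcript cluster, and which is no member, read 0.26 ± 0.08 in Lig+ (adjusted p = 0.0442) and 0.26 ± 0.09 in Lig- (adjusted p = 0.0646), opposite in sign to the Socs3 probe.

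Cish, which encodes the inhibitor CIS and is induced by STAT5, was the only one of the 10 genes with a called difference between the DN4 groups. It read -1.32, -1.16, 0.41 and -0.38 on the Lig+ arrays and -3.34, -3.53 and -2.07 on the Lig- arrays. The lowest Lig+ array stood above the highest Lig- array, so the groups did not overlap, which was so for 1 of the 17 probes and for 23% of all probes. The fit gave -0.80 ± 0.33 in Lig+ (adjusted p = 0.113, not called) and -3.10 ± 0.37 in Lig- (8.58-fold lower, adjusted p = 0.00126). The difference was 2.30 ± 0.47 (95% interval 1.16 to 3.44, adjusted p = 0.0303), higher in Lig+ on 3 of 3 slides that held both groups. Those slides differed by 2.02, 2.37 and 2.48, and with slide as a block in the fit the difference was 2.29 ± 0.11 (adjusted p = 0.00263). Scan day 1 alone gave 2.19 (adjusted p = 0.00047) and scan day 2 alone, with 1 Lig- array, 2.08. A single scan day leaves few arrays to estimate the spread. Within scan day 1, 44% of all probes were called between the groups. In the unblocked fit the call was lost on leaving out Lig+ replicate 1 (2.42, adjusted p = 0.12), Lig- replicate 1 (2.42, adjusted p = 0.12), Lig- replicate 2 (1.82, adjusted p = 0.0976), Lig+ replicate 3 (2.02, adjusted p = 0.0593) or Lig+ replicate 4 (2.29, adjusted p = 0.0765), with the sign kept each time.

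The ratio of Cish to DN3 moved with scan day in both groups, and the levels of the DN4 and DN3 channels are given beside it. Levels here are log2 intensities of one channel after background correction and normalisation, compared for 1 probe at a time. They were rebuilt from the loess-normalised ratio and the mean intensity of both channels, with no dye adjustment. The mean intensities were quantile-normalised between arrays, and comparisons of levels between days rest on that step. The DN3 level of Cish ran from 15.01 to 15.37 on the 4 arrays of scan day 1 and from 13.21 to 13.33 on the 3 arrays of scan day 2, a mean difference of 1.93. Its DN4 level was also higher on scan day 1, by 0.71 in Lig+ and 0.56 in Lig-. The DN4 level ran from 12.95 to 14.05 on the Lig+ arrays and from 11.14 to 11.92 on the Lig- arrays. These levels hold the same ratios and are no separate check. The share of all probes whose DN4 levels lay apart between the groups was not counted. Within scan day 1, Cish was called lower than in DN3 in Lig+ (-1.24, adjusted p = 0.000173) and in Lig- (-3.43, adjusted p = 2.03e-05). In that setting 64.3% and 63.8% of all probes were called. Within scan day 2, with 1 Lig- array, the values were 0.016 in Lig+ and -2.07 in Lig-. On that day DN4 carried Alexa 555 on every array, so these values have no dye term, unlike those of scan day 1. The dye term of Cish in the limma fit of all 7 arrays was -0.75 (adjusted p = 0.501). With scan day as a term in the fit the Lig+ value was -0.61 with an adjusted p of 0.0165, where 48.1% of all probes were called. The DN3 level of the brighter Socs2 probe was also higher on scan day 1, by 1.11, and that of Socs1 by 0.82, whereas that of Socs3 was lower by a small amount (-0.17). Over all probes, 4.27% had a DN3 level at least 1 unit higher on scan day 1 and 4.4% at least 1 unit lower. The DN4 level of that Socs2 probe was higher on scan day 1 too, by 1.56 in Lig+ and 0.41 in Lig-. Whether scan, hybridisation or RNA preparation goes with the day was not tested.

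**Figure D2:**
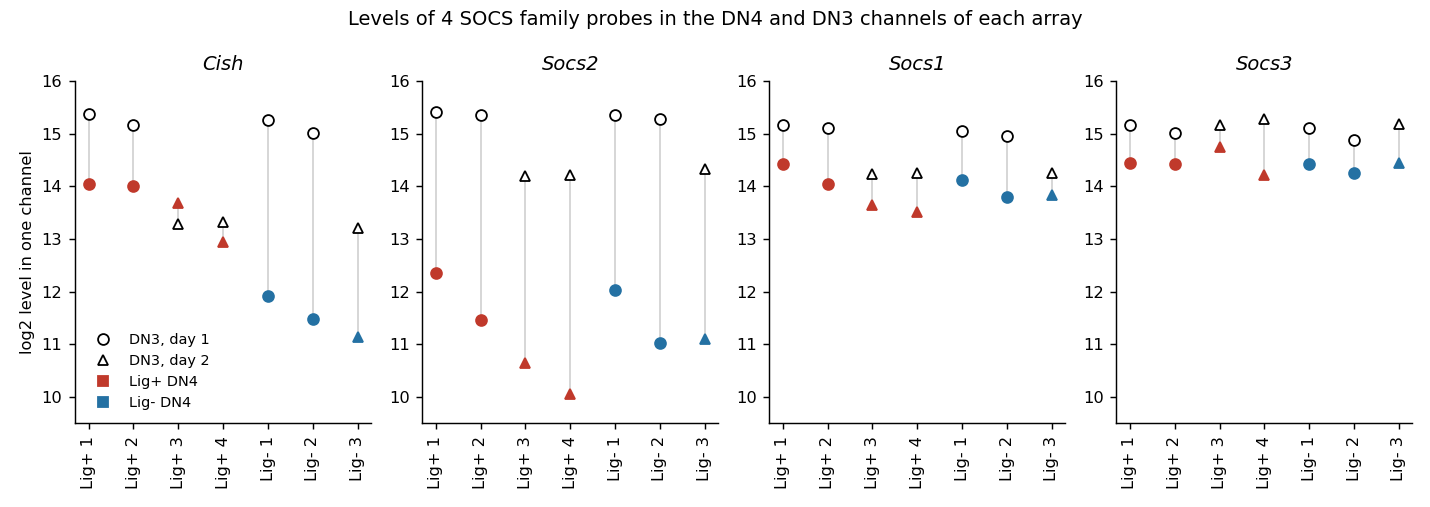
Log2 level in one channel (vertical axis) on each array (horizontal axis) for the brightest probe of Cish, Socs2, Socs1 and Socs3, with DN3 as open symbols, Lig+ DN4 in red and Lig- DN4 in blue, circles for scan day 1 and triangles for scan day 2; grey lines join the channels of an array. The DN3 level of Cish sits between 15.01 and 15.37 on scan day 1 and between 13.21 and 13.33 on scan day 2, while its Lig+ DN4 levels lie above the Lig- ones on either day.

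By the same measure as for Socs2, the genes most like Cish were Cd200 (root mean square difference 0.455), Alcam (0.563) and Nrarp (0.625). Their fitted values in Lig+ and Lig- were -0.61 and -2.93 for Cd200, -1.08 and -3.24 for Alcam, and -0.90 and -3.93 for Nrarp. Marker lists of other cells were set beside the Cish difference, with intensities summed from channel levels made as above. The summed intensity of 8 dendritic cell markers ran from 44148 to 72942 on Lig+ arrays and from 9967 to 16715 on Lig- arrays, with Clec9a not well above background in any DN4 channel. Of the 8, only H2-Ab1 was called between the groups (2.83 ± 0.25 higher in Lig+, adjusted p = 0.00215), and the median difference of the list was 0.18. Of all genes 11.2% were called between the groups, 4.58% higher and 6.59% lower in Lig+. Itgax (0.04), Xcr1 (0.17) and Zbtb46 (0.04) were not called. That of 6 NK and innate lymphoid markers ran from 3020 to 3915 and from 1423 to 1975. Of these 6, Eomes (3.09) and Tbx21 (1.09) were called higher in Lig+, the other 4 had differences from -0.69 to -0.18 and were not called, and the list's median was -0.23. The sum of 6 later thymocyte markers ran from 350602 to 534379 and from 211512 to 286586, with none of them called between the groups (limma, 0 at an unadjusted p under 0.05). The sums of 7 other marker lists overlapped between the groups. The part of these cells in the Cish difference was not tested.

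For the falls from DN3, 10 macrophage and monocyte markers summed to between 78020 and 100003 in the DN3 channels, from 10810 to 32684 in Lig+ and from 11639 to 20488 in Lig-. Of these 10 markers 9 were called lower in Lig+ and 10 in Lig-, and Lyz2 was lower by the most, with log2 ratios of -3.05 and -2.96. Of all genes 17.2% were called higher and 18.7% lower in Lig+, and 16.1% and 14.8% in Lig-. The DN3 sums of 7 B cell markers (35091 to 47298) and of 10 thymic stroma markers (35688 to 51169) also lay above those of every DN4 channel, which reached 30572 and 29830. Single markers did not all follow these sums. Of the B cell markers 0 were called higher by limma (0 at an unadjusted p under 0.05) and 2 lower in Lig+, and 3 higher (Cd79a, Ebf1 and Blnk, 0.71 to 1.07) and 1 lower in Lig-. Of the stroma markers 2 were called higher and 1 lower in Lig+, and 2 higher and 3 lower in Lig-, with Col1a1 and Pecam1 higher in both groups. The part of such cells in the lower Socs1, Socs2 and Socs3 values was not tested.

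STAT dimers are known to bind a palindrome spelled TTCNNNGAA, and the promoters of the inhibitors were searched for it because these genes are known STAT targets. The windows are the 250 bases before the start of the gene in RefSeq on GRCm38.p6, printed 5′ to 3′ on the gene's strand, with a match in capitals. The motif reads the same on both strands.
Cish, chr9:107296409-107296658, plus strand: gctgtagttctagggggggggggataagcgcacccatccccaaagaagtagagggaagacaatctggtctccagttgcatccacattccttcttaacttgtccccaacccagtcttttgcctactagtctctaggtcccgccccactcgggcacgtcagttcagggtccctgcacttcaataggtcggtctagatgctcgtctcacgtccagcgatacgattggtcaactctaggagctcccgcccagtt
Socs1, chr16:10785537-10785786, minus strand: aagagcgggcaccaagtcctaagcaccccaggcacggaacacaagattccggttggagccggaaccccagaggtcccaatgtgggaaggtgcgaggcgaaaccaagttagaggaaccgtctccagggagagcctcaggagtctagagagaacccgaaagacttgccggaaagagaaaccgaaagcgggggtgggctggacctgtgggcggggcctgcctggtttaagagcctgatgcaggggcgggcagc
Socs3, chr11:117969367-117969616, minus strand: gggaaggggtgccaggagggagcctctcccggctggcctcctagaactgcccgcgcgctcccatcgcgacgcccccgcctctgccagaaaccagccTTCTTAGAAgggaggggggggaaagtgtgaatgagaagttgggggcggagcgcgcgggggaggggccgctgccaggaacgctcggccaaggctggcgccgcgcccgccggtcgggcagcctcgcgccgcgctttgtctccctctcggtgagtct
The Socs3 window held 1 match, whose first base lies at -154 from the gene's start. Of the 11 windows of the 9 member genes in the table, this was the only one with a match, and 7.02% of all 32851 windows held one. Socs2 has no printed window. A match is a run of letters, and these windows say nothing of STAT binding further away.

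The 3 kinase genes rose in both DN4 groups on their brightest probes. Jak1 encodes the kinase shared by the receptors of IL-2, IL-6 and interferon families. Its brighter probe read 1.49, 1.55, 1.12 and 1.34 on the Lig+ arrays and 1.26, 1.41 and 1.65 on the Lig- arrays. All 7 arrays were high and the groups overlapped. The fit gave 1.37 ± 0.11 in Lig+ (2.58-fold higher, adjusted p = 0.000176) and 1.43 ± 0.12 in Lig- (2.70-fold higher, adjusted p = 0.000295), with a difference of -0.07 (95% interval -0.43 to 0.30). The other Jak1 probe gave 1.52 ± 0.08 and 1.67 ± 0.08 (adjusted p = 3.2e-05 and 5.0e-05). A further probe, described as Janus kinase 1 but named by an accession in the files and so no member, gave 0.87 ± 0.09 in both groups (adjusted p = 0.000444 and 0.000884).

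Jak2, the kinase of the growth hormone, IL-12 and interferon γ receptors, rose by about 0.9 on its brighter probe. That probe read 0.72, 1.07, 1.17 and 1.095 on the Lig+ arrays and 0.69, 0.93 and 0.93 on the Lig- arrays, with all 7 high and the groups overlapping. The fitted values were 0.94 ± 0.06 (adjusted p = 7.2e-05) and 0.80 ± 0.06 (adjusted p = 0.000259), and the difference was 0.14 (95% interval -0.06 to 0.33). The dimmer probe, 23.1 kb away by the files' coordinates, read 0.49, 0.72, 1.78 and 2.13 on the Lig+ arrays and 0.30, 0.52 and 0.67 on the Lig- arrays. The Lig+ arrays of scan day 2 stood apart from all others there. This probe was called in Lig+ (1.11 ± 0.25, adjusted p = 0.0144) and not in Lig- (0.38 ± 0.27, adjusted p = 0.352), and its difference of 0.72 ± 0.35 was not called (adjusted p = 0.266). Within scan day 1 its Lig- value was 0.41 and called (adjusted p = 0.000671), where 63.8% of all probes were called. On the 1 Lig- array of scan day 2, with no dye term, it read 0.67. Its difference was 0.19 within scan day 1 (adjusted p = 0.0367), where 44% of all probes were called, and 1.28 within scan day 2, with 1 Lig- array. The difference of the brighter probe was 0.08 within scan day 1, not called, and 0.20 within scan day 2. Without Lig+ replicate 1 the Lig+ value of the dimmer probe was 1.40 and not called (adjusted p = 0.0721).

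Jak3, the kinase that binds the common γ chain of the IL-2 and IL-7 receptors, had the least even rise. Its brighter probe read 1.56, 1.32, 0.47 and -0.21 on the Lig+ arrays and 1.08, 0.94 and 0.81 on the Lig- arrays. Lig+ arrays of scan day 1 were the highest of all and those of scan day 2 the lowest. The fit gave 0.94 ± 0.26 in Lig+ (adjusted p = 0.0317) and 1.05 ± 0.29 in Lig- (adjusted p = 0.0342), with a difference of -0.11 (95% interval -1.002 to 0.79). The other Jak3 probe gave 0.96 ± 0.25 (adjusted p = 0.0238) and 1.096 ± 0.27 (adjusted p = 0.0236). Within scan day 1 the brighter probe gave 1.44 in Lig+ (adjusted p = 2.98e-05), where 64.3% of all probes were called. Within scan day 2, fitted without a dye term, it gave 0.13. The dye term of this probe in the limma fit of all 7 arrays was 0.64 (adjusted p = 0.476). Its calls were lost with median centring in place of loess (0.82 in Lig+, adjusted p = 0.0834, and 0.97 in Lig-, adjusted p = 0.0736) and without the dye term (adjusted p = 0.051 and 0.0536), and its Lig- call with slide as a random block (0.91, adjusted p = 0.064). Its Lig+ call was lost without Lig+ replicate 1 (0.63, adjusted p = 0.391), Lig+ replicate 3 (0.99, adjusted p = 0.0692) or Lig- replicate 3 (0.95, adjusted p = 0.0572). Its Lig- call was lost without Lig+ replicate 1 (0.98), Lig- replicate 1 (1.39), Lig- replicate 2 (0.94), Lig+ replicate 3 (1.04) or Lig- replicate 3 (1.01), with adjusted p from 0.0612 to 0.132. With the Lig+ arrays fitted alone both probes lost their Lig+ call (1.04 and 1.03, adjusted p = 0.0815 and 0.0776). The other probe also lost its calls with median centring (0.83 in Lig+, adjusted p = 0.0668, and 1.01 in Lig-, adjusted p = 0.0532). It lost its Lig+ call without Lig+ replicate 1 (0.72, adjusted p = 0.31) or Lig+ replicate 3 (0.92, adjusted p = 0.0709). It lost its Lig- call without Lig+ replicate 1 (1.04) or Lig- replicate 1, 2 or 3 (1.355, 1.015 and 1.07), with adjusted p from 0.054 to 0.119. Further probes that the files describe only as similar to JAK3 protein, named by transcript clusters and no members, differed from these and from each other: one read -0.95 ± 0.17 and -0.71 ± 0.18 (adjusted p = 0.00535 and 0.0287), and the other 0.24 ± 0.12 and 1.12 ± 0.13 (adjusted p = 0.173 and 0.00128).

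**Figure D3:**
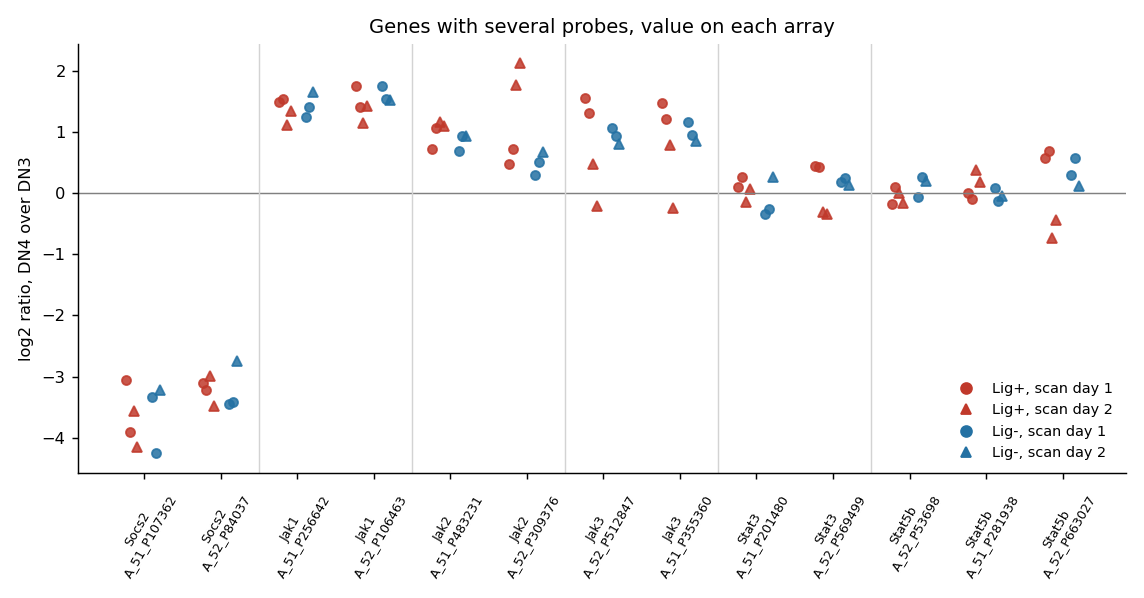
Log2 ratio of DN4 over DN3 on each array (vertical axis) for each probe of the 6 member genes with more than 1 probe (horizontal axis), with Lig+ in red, Lig- in blue, circles for scan day 1 and triangles for scan day 2. The Socs2, Jak1 and Jak3 probes of a gene lie at like heights, while the dimmer Jak2 probe reaches 1.78 and 2.13 on the Lig+ arrays of scan day 2 and the third Stat5b probe falls to -0.74 and -0.44 on them.

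Stat5a, Stat5b and Stat3 are neighbours on mouse chromosome 11 in RefSeq, in the order Stat5b, Stat5a, Stat3. Stat5a, a main carrier of IL-7 and IL-2 signals, read -0.48, -0.74, -1.52 and -1.48 on the Lig+ arrays and -0.17, -0.42 and -0.78 on the Lig- arrays. All 7 arrays were below 0, Lig+ lay below Lig- on each of the 3 shared slides, and the groups overlapped over all arrays. The fit gave -0.90 ± 0.16 in Lig+ (1.87-fold lower, adjusted p = 0.0052) and -0.35 ± 0.17 in Lig- (adjusted p = 0.181). The difference of -0.55 ± 0.22 was not called (adjusted p = 0.19), so a change in Lig+ alone was not shown. The slides differed by -0.31, -0.33 and -0.74, and with slide as a block the difference was -0.46 ± 0.11 (adjusted p = 0.0582). With scan day as a term the difference was called (-0.48, adjusted p = 0.0257), as it was within scan day 1 (-0.32, adjusted p = 0.00901). In those settings 22.1% and 44% of all probes were called between the groups. Stat5a was then also called lower in Lig- than in DN3, at -0.51 and -0.29 (adjusted p = 0.00544 and 0.00207), where 41.1% and 63.8% of all probes were called. Within scan day 2, with 1 Lig- array, the difference was -0.72 and the Lig- value, fitted without a dye term, -0.78. Without Lig+ replicate 1 the Lig+ value was -1.03 with an adjusted p of 0.0559, and without Lig+ replicate 2 the difference was -0.70 and called (adjusted p = 0.0469). The genes most like Stat5a by the root mean square difference were Srm (0.0517), Gas8 (0.081) and Poldip2 (0.0812).

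Stat5b, the close relative of Stat5a, was called in neither group. Its brightest probe read -0.18, 0.10, 0.00 and -0.15 on the Lig+ arrays and -0.06, 0.27 and 0.20 on the Lig- arrays, all near 0. The fit gave -0.12 ± 0.07 (95% interval -0.28 to 0.05) in Lig+ and 0.10 ± 0.07 (95% interval -0.08 to 0.28) in Lig-, and the difference was -0.22 ± 0.10 (adjusted p = 0.227). Of its other probes one gave 0.12 ± 0.10 and -0.03 ± 0.11. The third gave 0.12 ± 0.27 and 0.39 ± 0.29. Its Lig+ value was 0.64 within scan day 1 (adjusted p = 0.000319), where 64.3% of all probes were called. Within scan day 2, fitted without a dye term, it was -0.59. The DN3 level of that probe was lower on scan day 1 than on scan day 2, with a mean difference in log2 level of -2.325.

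Stat3, which carries IL-6 and IL-10 signals, was likewise called in neither group. Its brighter probe, printed 10 times on the array, read 0.10, 0.27, -0.15 and 0.08 on the Lig+ arrays and -0.34, -0.25 and 0.27 on the Lig- arrays. Values lay on both sides of 0 in either group. Lig+ differed from Lig- by 0.44, 0.52 and -0.41 on slides 1, 2 and 3. Within scan day 1 the difference was 0.48 (adjusted p = 0.00359), where 44% of all probes were called, and within scan day 2, with 1 Lig- array, -0.30. Lig+ (0.18, adjusted p = 0.013) and Lig- (-0.30, adjusted p = 0.00261) were also called against DN3 within scan day 1. The fit gave 0.04 ± 0.12 in Lig+ (95% interval -0.26 to 0.34) and -0.13 ± 0.14 in Lig- (95% interval -0.46 to 0.19). Repeat spots of this probe on an array had an SD of 0.042 to 0.115, below the spread between arrays. The other Stat3 probe gave 0.12 ± 0.16 and 0.23 ± 0.18. By the files' coordinates that probe lies 0.3 kb from the Stat5a probe, so which of the neighbouring genes it reports is uncertain.

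**Figure D4:**
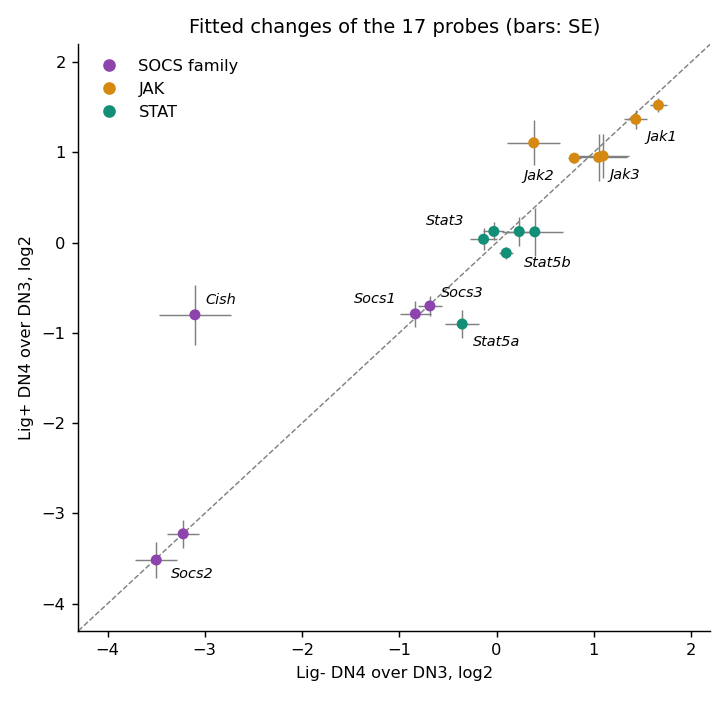
Fitted log2 ratio in Lig+ (vertical axis) against that in Lig- (horizontal axis) for the 17 probes, with SE bars; purple points are SOCS family probes, orange JAK and green STAT, the brightest probe of a gene is named, and the dashed line marks equal values. Cish lies far above the line at -3.10 and -0.80, while Socs2 sits on it near -3.5 in both groups.

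The wider JAK, STAT and SOCS family was described from a list of 8 further genes, of which 4 were called higher and 0 lower by limma in either group. At an unadjusted p under 0.05, 5 were higher and 2 lower in Lig+, and 5 higher and 0 lower in Lig-. For leading probes 17.2% were called higher and 18.7% lower in Lig+ over all genes, and 16.1% and 14.8% in Lig-. These shares are for calls at an adjusted p under 0.05, and no share over all genes is given for an unadjusted p. Tyk2, the fourth JAK, rose by 0.82 ± 0.11 and 0.68 ± 0.12 (adjusted p = 0.00146 and 0.00591). The leading probes of all 4 JAK genes were thus called higher in both groups, with the limits given above for Jak2 and Jak3. Stat4, which carries IL-12 signals, rose by 1.24 ± 0.09 and 1.67 ± 0.10 (adjusted p = 0.000129 and 8.66e-05). Stat6, which carries IL-4 signals, rose by 1.1 ± 0.11 and 0.84 ± 0.12 (adjusted p = 0.000387 and 0.00242), but its 3 probes ran from 0.96 to 1.1 in Lig+ and from -0.07 to 0.84 in Lig-. Socs5 rose by 0.77 ± 0.09 and 0.48 ± 0.10 (adjusted p = 0.000824 and 0.0108), whereas none of the 4 member inhibitors was called higher. Stat2, Socs4, Socs6 and Socs7 were called in neither group, with values from -0.41 to 0.23. The family's difference between Lig+ and Lig- was called by limma for 0 of these 8 genes, where 11.2% of all genes were called, and 1 of them had an unadjusted p under 0.05.

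Of 13 other brakes on the pathway and parts of the SOCS box ubiquitin ligase, 5 were called higher and 2 lower in Lig+, and 5 higher and 1 lower in Lig-. Of all genes 17.2% and 18.7% were in Lig+, and 16.1% and 14.8% in Lig-. Between the groups 1 was called higher and 2 lower in Lig+, where 11.2% of all genes were called. The lower ones were Pias3 (-0.52 ± 0.12, adjusted p = 0.0418) and Ptpn2 (-0.44 ± 0.09, adjusted p = 0.0292). The Ptpn2 probes ran from -0.44 to 0.05 in this difference. Ptpn6, the phosphatase SHP-1, rose by 1.76 ± 0.12 in Lig+ (adjusted p = 0.000115) and 0.87 ± 0.14 in Lig- (adjusted p = 0.00415), with a called difference of 0.89 ± 0.18 (adjusted p = 0.027). Its 3 probes disagreed, with values from 0.0034 to 1.76 in Lig+ and from 0.017 to 0.87 in Lig-, and differences from -0.01 to 1.36. Sh2b3, the adaptor LNK, rose by 1.02 ± 0.08 and 0.68 ± 0.09 (adjusted p = 0.000168 and 0.00178). Pias3, an inhibitor of STAT3, rose by 0.40 ± 0.08 and 0.92 ± 0.09 (adjusted p = 0.0111 and 0.000645), and Pias2 by 0.66 ± 0.08 and 0.65 ± 0.08 (adjusted p = 0.000817 and 0.0017), though the 4 Pias2 probes ran from 0.08 to 0.69 and from -0.03 to 0.65.

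Of 24 measured receptor chains that use JAKs, 13 were called higher and 3 lower in Lig+, and 14 higher and 3 lower in Lig-. Of all genes 17.2% were called higher and 18.7% lower in Lig+, and 16.1% and 14.8% in Lig-. Between the groups 8 chains differed, 5 higher and 3 lower in Lig+, where 11.2% of all genes did, 4.58% higher and 6.59% lower. The median log2 ratio of the list was 0.79 in Lig+ and 0.68 in Lig-. Il2ra fell as given above, while its partner chain Il2rb rose by 3.84 ± 0.26 and 2.15 ± 0.28 (adjusted p = 9.52e-05 and 0.00202). Il4ra rose by 3.52 ± 0.15 and 3.16 ± 0.17 (adjusted p = 2.07e-05 and 6.04e-05), and Il12rb1 by 2.35 ± 0.10 and 3.64 ± 0.11 (adjusted p = 1.9e-05 and 1.41e-05). Il7r and Il2rg, the chains of the IL-7 receptor, were chosen after their values were seen because they signal through Jak1 and Jak3. Il7r read 0.20 ± 0.14 in Lig+ (adjusted p = 0.325) and fell in Lig- (-2.38 ± 0.15, adjusted p = 0.000106), a called difference of 2.58 ± 0.19 (adjusted p = 0.00138) with the same order as Cish. Il2rg rose by 1.31 ± 0.09 and 0.76 ± 0.10 (adjusted p = 9.8e-05 and 0.00173).

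**Figure D5:**
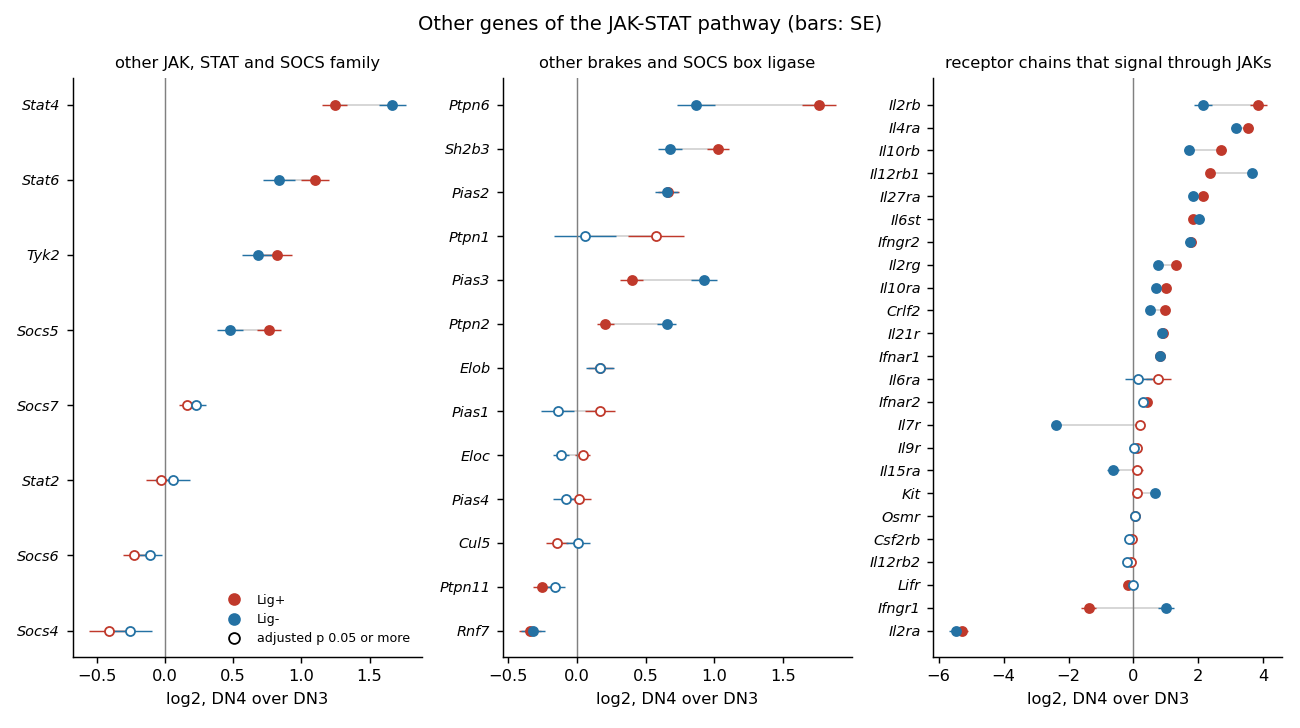
Fitted log2 ratio of DN4 over DN3 with SE bars (horizontal axis) for 8 further family members, 13 other brakes and 24 receptor chains (vertical axis), Lig+ in red and Lig- in blue, with open circles where the adjusted p was 0.05 or more. Stat4, Stat6, Tyk2 and Socs5 lie to the right of 0 in both groups, and Il7r and Ifngr1 show wide gaps between the groups in opposite directions.

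Among 13 measured cytokine genes, 3 were called higher and 4 lower in Lig+, and 2 higher and 4 lower in Lig-. The shares over all genes were 17.2% and 18.7% in Lig+, and 16.1% and 14.8% in Lig-. Tslp, a cytokine of epithelial cells that acts through JAK1, JAK2 and STAT5, fell in both groups (-3.10 ± 0.13 and -3.55 ± 0.14, adjusted p = 1.93e-05 and 2.61e-05), and so did Il10 (-2.41 ± 0.10 and -2.45 ± 0.10, adjusted p = 1.68e-05 and 3.02e-05). In the DN4 channel Tslp was well above background on only 2 of 4 Lig+ and 2 of 3 Lig- arrays, and Il10 on 3 of 4 and 3 of 3, so the size of these falls, of Tslp above all, rests partly on signal near background. The other called falls were Il6 (-0.54 and -0.62) and Il7 (-0.50 and -0.70), where Il6 was not well above background in any DN4 channel and Il7 on only 2 Lig+ arrays. Il12a rose in Lig- (2.18 ± 0.14, adjusted p = 0.000118) and read -0.23 ± 0.13 in Lig+, and Ifng rose in Lig+ (1.02 ± 0.16, adjusted p = 0.00296) and read -0.30 ± 0.17 in Lig-. Both of these differences were called, at -2.41 ± 0.18 for Il12a (adjusted p = 0.00139) and 1.31 ± 0.22 for Ifng (adjusted p = 0.0162).

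Genes known to respond to STAT5 did not move one way. Of 18 on the list, 8 were called higher and 4 lower in Lig+, and 7 higher and 6 lower in Lig-. For this list and the next, the shares over all genes were 17.2% higher and 18.7% lower in Lig+, and 16.1% and 14.8% in Lig-. Il2ra, itself a STAT5 target, fell as above. Lta, which encodes lymphotoxin α, rose by 3.30 ± 0.14 and 3.44 ± 0.15 (adjusted p = 1.87e-05 and 3.13e-05). Pim2, a survival kinase, rose by 2.97 ± 0.11 and 2.55 ± 0.12 (adjusted p = 1.22e-05 and 3.81e-05), and Prf1, which encodes perforin, by 2.81 ± 0.20 and 1.58 ± 0.22 (adjusted p = 0.000115 and 0.00236). Of 10 measured genes known to respond to STAT3, 9 were called higher and 1 lower in Lig+, and 8 higher and 1 lower in Lig-. They included Fos (4.26 ± 0.39 and 2.81 ± 0.43, adjusted p = 0.000322 and 0.0036) and Bcl3 (3.45 ± 0.15 and 2.02 ± 0.16, adjusted p = 2.02e-05 and 0.000262). Maf, a factor of several effector lineages, rose by 1.01 ± 0.10 and 3.58 ± 0.11 (adjusted p = 0.000521 and 1.74e-05), with 4 probes from 0.65 to 2.73 and from 3.58 to 6.85. Batf, a partner of AP-1 factors, rose by 2.76 ± 0.08 and 3.21 ± 0.09 (adjusted p = 8.3e-06 and 1.16e-05). Genes on both lists answer to many other signals, and Ccnd1 and Bcl6 stand on both.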

How the data were processed

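The scanner files hold spot intensity values extracted with Agilent Feature Extraction, version 9.5.1.1 on slides 1 and 2 and 9.5.3.1 on slides 3 and 4, per the file headers. The submitters' processing notes name only 9.5.1.1. Log10 ratios stand in the series table that the authors deposited, and they equalled Agilent's log ratio turned to DN4 over DN3 (largest difference 4.87e-08). RNA was isolated on columns, amplified and labelled with Alexa 555 or 647, per the labels' protocols. DN4 carried Alexa 647 on slide 1 and 555 on the others. Arrays of one dye orientation correlated at 0.556 to 0.91 and of opposite ones at -0.841 to -0.496.

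With R 4.3.3 and limma 3.58.1, background was corrected (normexp, offset 50), arrays were loess-normalised with 1639 control spots at no weight, 0.354% of spots marked as outliers were set missing, and spots of a probe were averaged. A probe was kept if 3 or more arrays had it well above background in the DN4 or the DN3 channel, which left 34887 of 41174. Log2 ratios of DN4 over DN3 were fitted with Lig+, Lig- and dye terms (4 residual degrees of freedom). Scan day 2 had DN4 in Alexa 555 on all its arrays, so the fit of that day alone had no dye term. The ratio was tested against 0. Each array has its own DN3 channel, so the spread of that channel between arrays enters the fit. If the DN3 RNA was 1 pool, the spread between DN3 preparations is left out. Shared RNA between arrays would make p too small. The number of arrays limits the precision. The fit was tested on simulated data.

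Replicate numbers follow the order of samples and only name them. Arrays of a slide deviated from their group means together (r = 0.726, 0.526 and 0.55), so slide was also fitted as a block. Gene members were taken by the name in the files. The leading probe of a gene has the highest mean intensity. Listed genes were named where past the threshold, up to 4 of a list by the largest ratio to DN3 and all of the wider family, and up to 3 most like a member. Names of other genes came from a RefSeq table. Some genes of the lists are not reported here and enter none of the counts of lists. Members and lists were chosen with earlier results of these data known. The build of the probe coordinates is not given in the sources used here.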

Additional observations from a re-analysis of the deposited data

Results flagged for a closer look

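The Cish log2 ratio was 2.30 higher in Lig+ than in Lig- DN4 cells (adjusted p = 0.0303 by limma), and this is listed because the effects of the groups under the same contrast with DN3 differed by a test of the difference itself. It was the only one of the 17 probes so listed. None of the 17 probes of the 10 genes had a Lig+ array far from the others by Dixon's criterion, and the 3 Lig- arrays are too few for it.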

How the results depend on the processing

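Over 20 alternative settings, 948 values of single probes were recomputed: 878 kept their direction and side of the threshold or changed sign with neither value past it (55 of them), 42 lost the call, 20 gained one and 8 reversed. The reversals came from single scan days. Within scan day 1 the difference of Lig+ and Lig- became 0.312 and 0.274 for the Socs2 probes, 0.191 for the brighter Jak1 probe, 0.428 and 0.281 for the Jak3 probes and 0.223 for the dimmer Stat3 probe. Within scan day 2, fitted without a dye term, the Lig+ value was -0.328 for that Stat3 probe and -0.587 for the third Stat5b probe. The cause was not tested. The count of called members in Lig+ against DN3 was 7 with 1 probe per gene, since 10 were then tested, and between 5 and 11 on leaving out an array in turn, with 5 without Lig+ replicate 1. In Lig- it was between 6 and 10, with 6 without Lig- replicate 1. For Lig+ against Lig- it was 2 with scan day as a term, 10 within scan day 1, 3 within scan day 2, and between 0 and 2 on leaving out an array. Over all probes, 44% were called between the groups within scan day 1 and 22.1% with scan day as a term. With neither, 10.9% were, so the higher counts of called members went with more calls over all probes. Scan day 2 held 1 Lig- array, so its count is given without weight. Slide as a random block, a paired analysis of the slides, gave 11, 9 and 1 called members, and slide as a fixed block 1. Beside the Jak3 value above, the blocks changed no other call of a leading probe. Of all probes, 12774 were called in Lig+ and 11079 in Lig-, against 5619 without Lig+ replicate 1 and 3888 without Lig- replicate 1. Between the groups 3810 were called, against 8297 and 7162 with the random and the fixed block, 7719 with scan day as a term, and 961 without Lig+ replicate 1.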
